A study of Mus musculus with 75 samples.

Results

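The comparison described here set the gastrocnemius muscle of tumour-bearing mice treated with paclitaxel against that of mice that had neither tumour nor drug. Its members were the 13 libraries whose titles contain C26-PTX (7 female, 6 male) and the 15 libraries whose titles contain PBS-Saline and that have a column of values (7 female, 8 male), 28 of the 73 libraries with a group. All mice were BALB/c. The paclitaxel hosts had received 1000000 C26 cells on both sides, a line from a mouse colon carcinoma, and from day 12 paclitaxel at 75% of the maximum tolerated dose in 2 cycles with 2 injections a week. The controls received phosphate-buffered saline (PBS) in place of cells and saline in place of drug, and muscle was taken at day 25. Tumour and drug were given together, so a difference between these groups cannot be told apart into a part from each. Saline-treated C26 hosts (7 female, 8 male), which carried the tumour without drug, are set beside the 2 groups at the end. The labels do not give the age of the mice or their housing, and they give every library the same batch value.

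The gastrocnemius is a calf muscle of mostly fast fibres. C26 tumours are a long-used model of cancer cachexia, in which circulating interleukin-6 acts through gp130 and STAT3 in muscle, glucocorticoids rise, and FoxO transcription factors drive the ubiquitin ligases and autophagy genes that break down muscle protein. STAT3 also switches on acute-phase genes, best known from liver. Paclitaxel binds microtubules, stabilises them and blocks mitosis. The design asks what remains different from tumour-free muscle after the drug.

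The deposited values are log2 expression per gene and library, close to log2 CPM, the count divided by the library total and multiplied by 1000000. Differences are paclitaxel hosts minus PBS mice on that scale, from limma with sex as a block, with the standard error after ±, and a gene was called at an adjusted p under 0.05 (Benjamini-Hochberg over all 13856 genes). Estimated counts per library summed to 11.7 to 34.1 M (M, 1000000; median 21.5 M). The 10 myofibre markers, among them Acta1, Ckm and Myh4, summed to 116770 to 233820 CPM in the PBS mice and to 117740 to 299230 in the paclitaxel hosts, and limma called 0 of the 10 (1 at an unadjusted p under 0.05). Of 12 epithelial markers that carcinoma cells could bring, 5 were measured and 1 was called, Lgals4, at 0.46 ± 0.18, adjusted p = 0.0492, which did not pass with GC slope as a covariate (0.20, adjusted p = 0.419) or when any 1 of 15 of the libraries was left out (0.39 to 0.47).

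The libraries fell into 2 kinds by how their values followed the GC content of transcripts. The GC slope, the change of a library's values per standard deviation of transcript GC content, exceeded 0.1 in 6 of 13 paclitaxel libraries (2 of 7 female, 4 of 6 male) and in 4 of 15 PBS libraries (2 of 7 female, 2 of 8 male). The 6 paclitaxel libraries above 0.1 had slopes of 0.321 to 0.498, steeper than the 0.143 to 0.220 of the 4 PBS libraries. The other 18 libraries had slopes of -0.242 to -0.0305. On average the slope was 0.207 higher in the paclitaxel hosts (p = 0.0214, permutation test within sex, two-sided), 0.346 higher in males (exact permutation p = 0.0133) and 0.0716 higher in females (exact permutation p = 0.572). Transcripts encoded by mitochondrial DNA, which are poor in GC, took 6.30 ± 4.25% (SD, n = 13) of expression in the paclitaxel hosts and 9.83 ± 3.61% (n = 15) in the PBS mice (p = 0.0288, permutation test within sex). Every library above 0.1 held a mitochondrially encoded share of 1.65 to 5.14%, and every other library one of 8.46 to 14.6%. Leaving out 1 library at a time, the difference in this share ran from -4.05 to -3.12 percentage points, and its p was above 0.05 without female paclitaxel replicate 6 or male paclitaxel replicates 1, 2, 3 or 5. The part of the slope in the results was not tested as a cause. Counts over gene lists are therefore given also with the slope as a covariate, and single genes where that changes the call. The limit of 0.1 was known from an earlier look at these data.

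**Figure D1:**
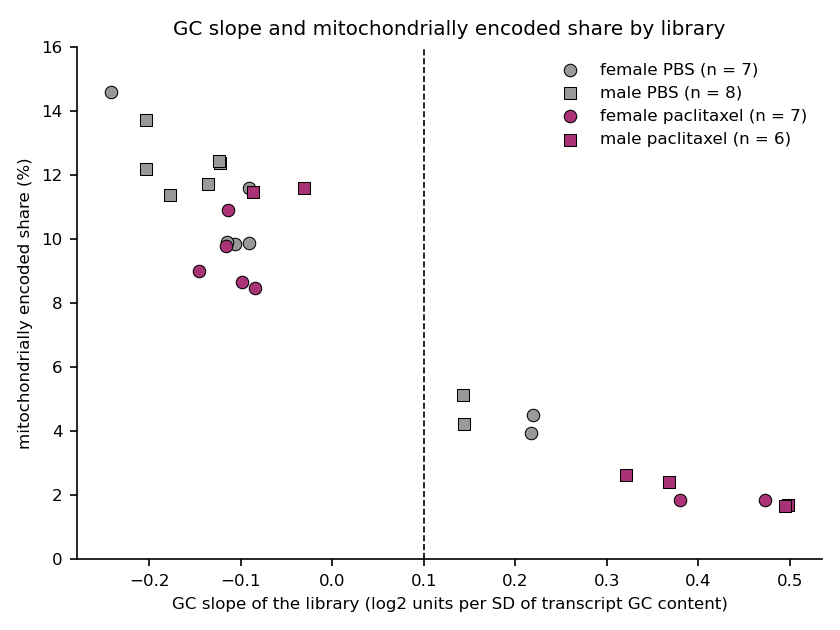
GC slope of each library (log2 units per standard deviation of transcript GC content, x axis) against the percent of expression in mitochondrially encoded genes (y axis), for the 4 groups by sex and treatment, with the limit of 0.1 as a dashed line. The 10 libraries to the right of the line hold 1.65 to 5.14% and the 18 to the left 8.46 to 14.6%.

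Of the 13856 genes, 4316 (31.1%) were called between paclitaxel hosts and PBS mice, 2083 higher (15%) and 2233 lower (16.1%), with a median difference over all genes of -0.020. The calls followed GC content. Genes called higher had a median transcript GC content of 55.2% and genes called lower of 46.8%, against 51.1% over all genes. In the decile of genes with the lowest GC content 1.4% were called higher and 30.0% lower, and in the highest decile 31.2% and 2.3%. With the slope as a covariate 2839 genes were called (20.5%, 1436 higher and 1403 lower), of which 1926 were among the 4316, so that 44.6% of the calls were kept. The median GC content was then 52.1% among higher and 51.8% among lower calls.

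**Figure D2:**
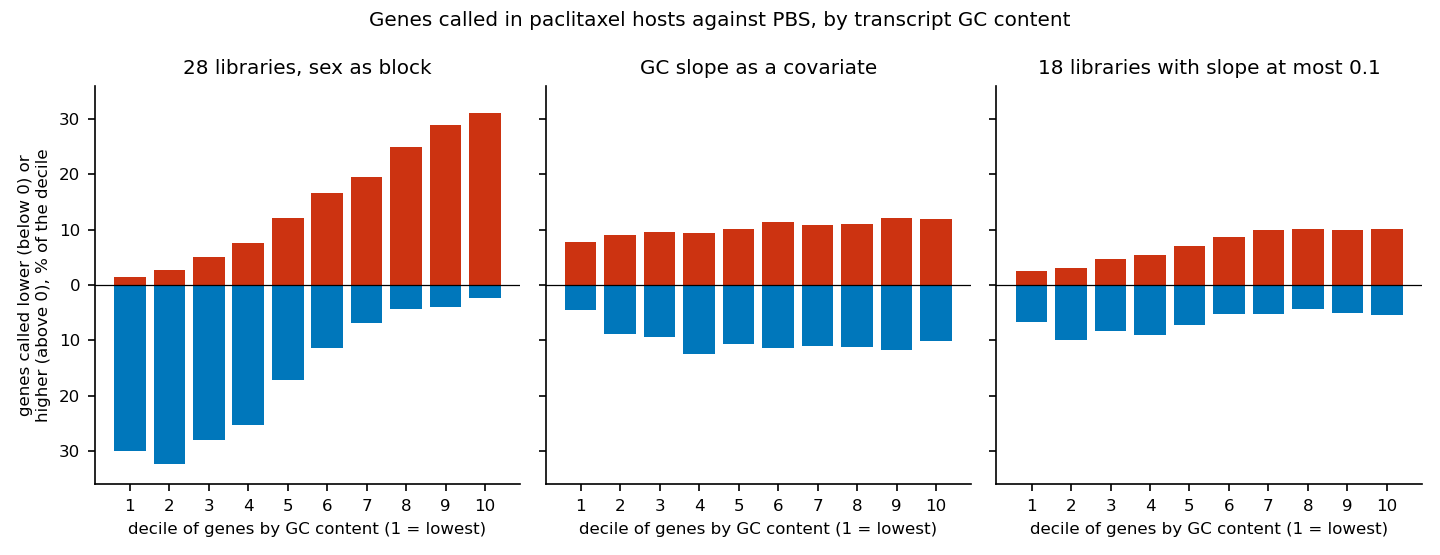
Percent of genes called higher (red, above 0) and lower (blue, below 0) in paclitaxel hosts against PBS mice, in deciles of genes by transcript GC content, for the 28 libraries, for the same libraries with GC slope as a covariate, and for the 18 libraries with a slope of at most 0.1. The lowest decile goes from 1.4% higher and 30.0% lower to 7.7% and 4.5% with the covariate.

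Tested apart, the 18 libraries at or below 0.1 gave 1915 calls (13.8%, with 7.18% higher and 6.64% lower) and the 10 above it 2469 (17.8%, with 9.17% higher and 8.65% lower). In both kinds 747 genes (5.39%) were called, 444 higher (3.2%) and 303 lower (2.19%), with 0 in opposite directions. The split did not even out the slope, so a call in both kinds is not free of it. Above 0.1 the slopes were 0.321 to 0.498 in paclitaxel and 0.143 to 0.220 in PBS libraries. Median GC content was 56.7% among higher and 45.2% among lower calls there. At or below 0.1 the slopes were -0.146 to -0.0305 and -0.242 to -0.0906, and the GC medians 53.5% and 49.1%. Of these 747 genes, 682 were also called with the slope as a covariate. In 27 genes (0.195%) the paclitaxel and PBS libraries did not overlap at all, 22 higher (0.159%) and 5 lower (0.0361%). The 22 higher genes included Serpina3n, Lbp, Lrg1, Fkbp5, Ackr1, Csf2rb, Plvap, Cxcl14 and Rpl3, which are described below. The 5 lower genes, named because they are so few, were Cd83, Itgb6, Fbxw7, Slc25a15 and Asb1.

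Acute-phase and STAT3 genes were higher in the muscle of paclitaxel hosts than in tumour-free muscle. Of 35 measured genes of this list 23 rose and 2 fell (65.7% and 5.7%), with a median difference of 1.05, against 15% and 16.1% of all genes. With the slope as a covariate 23 rose and 1 fell, against 10.4% and 10.1% of all genes, and 17 rose in both kinds of library. Their summed level was 741 to 999 CPM in the PBS mice and 927 to 2582 in the paclitaxel hosts. Neutrophil and macrophage markers, described below, were higher in the same hosts, and their part in this result was not tested.

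Among receptors, Il6ra, which binds interleukin-6, ranged from 3.24 to 6.45 (median 4.29) in the paclitaxel hosts and from 2.18 to 3.62 (median 3.06) in the PBS mice. The difference was 1.65 ± 0.24, adjusted p = 1.75e-05, and it was called in both kinds of library. Osmr, the receptor subunit for oncostatin M, rose by 0.95 ± 0.17 (adjusted p = 1.52e-04), and the shared signalling subunit Il6st (gp130) by 0.24 ± 0.082 (adjusted p = 0.0306). Il6st missed the threshold without male paclitaxel replicate 2 (0.22, adjusted p = 0.0528) or 3 (0.18, adjusted p = 0.0623). Lifr, the receptor for leukaemia inhibitory factor, moved the other way (-0.60 ± 0.18, adjusted p = 0.0145), and this fall did not pass with the covariate (-0.16, adjusted p = 0.137). These 4 receptors were chosen after their values were seen.

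Of the signalling genes, Stat3 itself lay between 5.79 and 6.41 (median 5.93) in the PBS mice and between 6.25 and 8.02 (median 7.23) in the paclitaxel hosts. The difference was 1.22 ± 0.15, adjusted p = 1.54e-06, with all 13 paclitaxel libraries above the PBS mean. Socs3, the feedback inhibitor that STAT3 induces, ranged from 1.26 to 4.54 (median 3.79) in the paclitaxel hosts and from 0.61 to 3.60 (median 1.50) in the PBS mice. The groups overlapped, with 1 PBS library, male replicate 7, at 3.603, and the difference was 1.85 ± 0.30, adjusted p = 7.59e-05. Bcl3, an IκB-family coactivator chosen after its values were seen, rose by 1.72 ± 0.21 (adjusted p = 1.63e-06). Cebpd, a transcription factor of the acute phase, rose by 1.05 ± 0.32 (adjusted p = 0.0158), but it did not pass with the covariate (0.75, adjusted p = 0.116) or in either kind of library.

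By the rule for named genes, the 10 largest rises were those of Mt2, Serpina3n, Lcn2, Mt1, C4b, Fkbp5, Fam110d, Hp, Csf2rb and Csf2rb2. Serpina3n (ENSMUSG00000021091), which inhibits serine proteases in the acute phase, ranged from 3.69 to 6.65 (median 4.93) in the paclitaxel hosts and from 0.52 to 2.57 (median 1.56) in the PBS mice. No paclitaxel library reached down to any PBS library, and the difference was 3.37 ± 0.28, adjusted p = 1.09e-08. Lcn2 (ENSMUSG00000026822), which binds bacterial siderophores and which neutrophils also make, lay between -1.93 and 2.28 (median -0.50) in the PBS mice and between -0.070 and 6.03 (median 2.75) in the paclitaxel hosts. Its groups overlapped and its spread among treated mice was wide, with a difference of 3.34 ± 0.50, adjusted p = 2.28e-05. Lbp, which carries lipopolysaccharide to its receptor, rose by 1.88 ± 0.22 (adjusted p = 7.42e-07) and Lrg1, a leucine-rich glycoprotein of plasma, by 1.66 ± 0.19 (adjusted p = 6.52e-07), both with no overlap between groups. Hp (haptoglobin), which binds free haemoglobin, rose by 2.02 ± 0.40 (adjusted p = 5.66e-04). Complement genes rose as well. C4b gained 2.49 ± 0.27 (adjusted p = 2.44e-07), the central component C3 1.57 ± 0.23 (adjusted p = 1.95e-05) and the alternative-pathway factor Cfb 1.46 ± 0.22 (adjusted p = 2.48e-05), the last 2 chosen after their values were seen. Genes of the Serpina3 cluster and C4b have near-identical copies, so their values are uncertain where shared reads were divided.

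**Figure D3:**
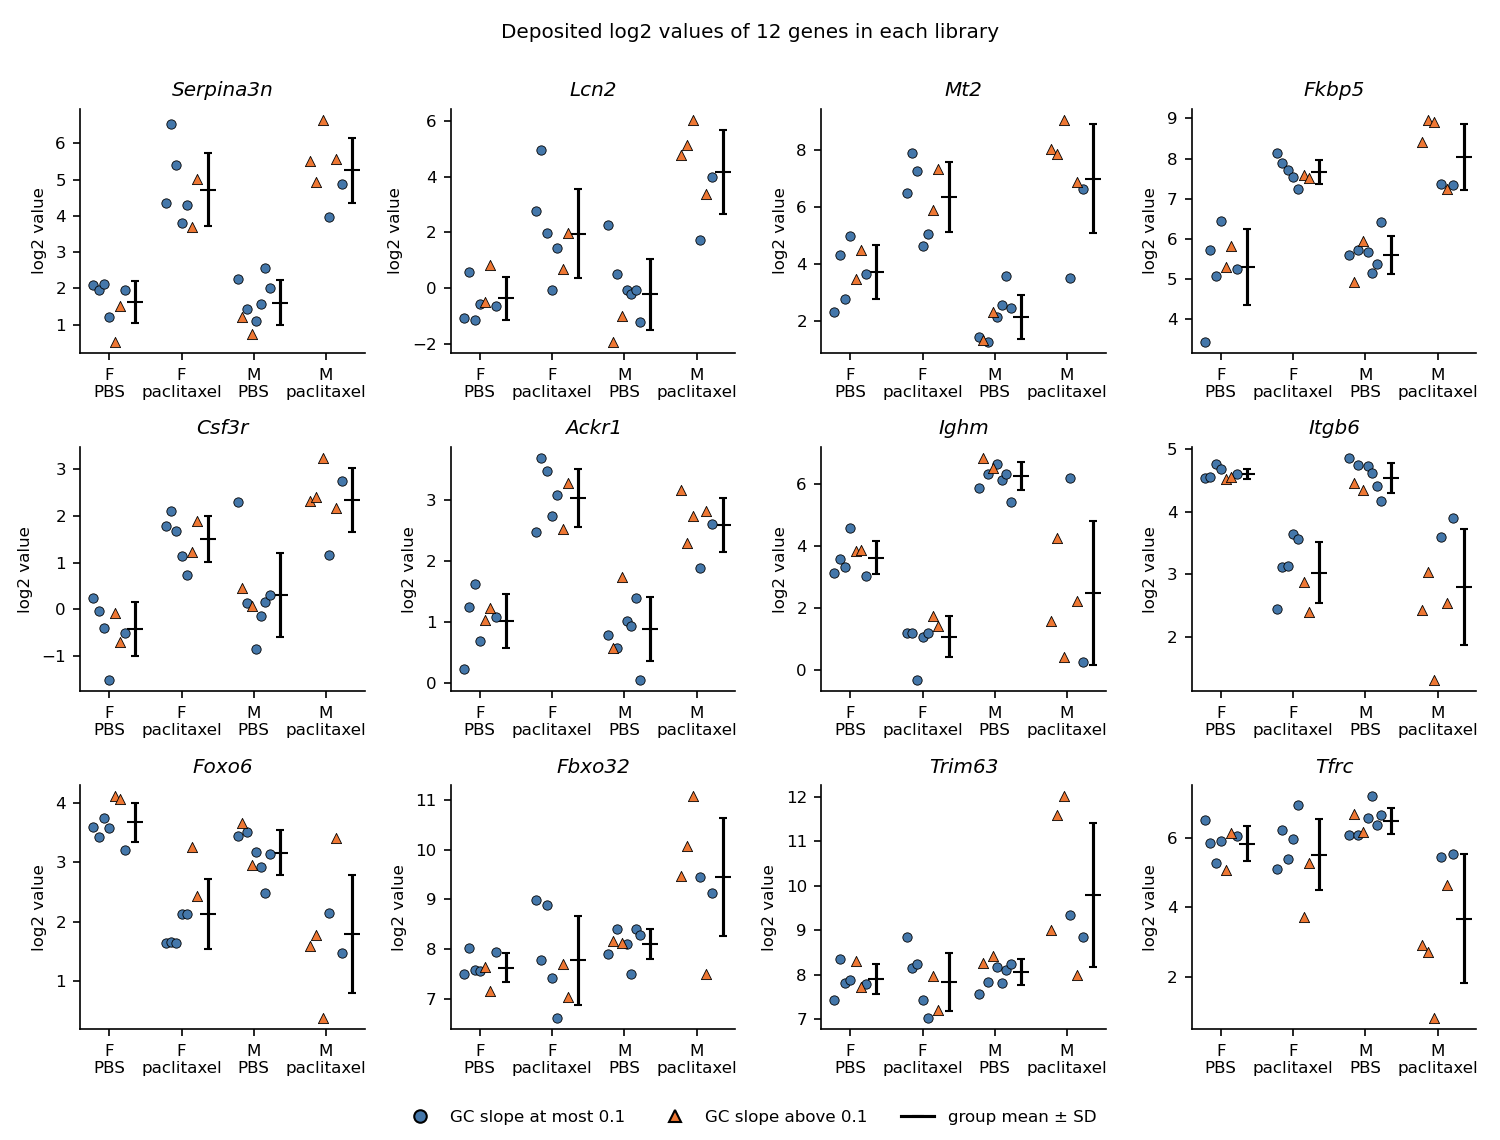
Deposited log2 values (y axis) of 12 genes in each of the 28 libraries, by sex and treatment, with the group mean ± SD and libraries above a GC slope of 0.1 as triangles. For Serpina3n, Fkbp5 and Ackr1 every paclitaxel library lies above every PBS library, for Itgb6 every one lies below, and Tfrc spreads from 0.81 to 6.94 among the paclitaxel hosts.

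The promoters of 4 of these genes are printed because their products or feedback carry the finding and because they differ in the letters searched. They are the 250 bases before the gene start in RefSeq (GRCm38.p6, a build other than that of the deposited values), matched by symbol. The STAT motif TTCNNNGAA and the letters TGCNCNC were searched on both strands, and capitals mark their matches. The first occurs in 7.18% and the second in 43.8% of 27025 promoters of this length. TGCNCNC is called the metal response element core here, but it is looser than the usual core TGCRCNC (R, A or G). A match is a string of letters and was not tested for binding.
Socs3, chr11:117969367-117969616, minus strand, capitals for the STAT motif: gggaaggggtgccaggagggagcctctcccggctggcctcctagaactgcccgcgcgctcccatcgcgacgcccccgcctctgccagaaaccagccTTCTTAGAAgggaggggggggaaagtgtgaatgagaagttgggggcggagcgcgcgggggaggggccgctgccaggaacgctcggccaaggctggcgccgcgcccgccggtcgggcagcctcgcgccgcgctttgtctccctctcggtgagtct
Serpina3n, chr12:104406458-104406707, plus strand, no match to the STAT motif: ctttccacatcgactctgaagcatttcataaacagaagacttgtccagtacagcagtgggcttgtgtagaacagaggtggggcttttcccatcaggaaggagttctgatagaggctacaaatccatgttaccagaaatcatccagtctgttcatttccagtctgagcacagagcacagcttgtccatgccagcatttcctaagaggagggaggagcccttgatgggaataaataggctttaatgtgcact
Mt2, chr8:94172368-94172617, plus strand, capitals for the metal response element core: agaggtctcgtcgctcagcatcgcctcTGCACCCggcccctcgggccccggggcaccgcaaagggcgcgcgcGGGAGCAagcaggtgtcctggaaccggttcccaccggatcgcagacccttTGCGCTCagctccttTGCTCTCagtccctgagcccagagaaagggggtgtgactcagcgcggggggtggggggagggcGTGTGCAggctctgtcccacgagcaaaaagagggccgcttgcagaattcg
Mt1, chr8:94178839-94179088, plus strand, capitals for the metal response element core: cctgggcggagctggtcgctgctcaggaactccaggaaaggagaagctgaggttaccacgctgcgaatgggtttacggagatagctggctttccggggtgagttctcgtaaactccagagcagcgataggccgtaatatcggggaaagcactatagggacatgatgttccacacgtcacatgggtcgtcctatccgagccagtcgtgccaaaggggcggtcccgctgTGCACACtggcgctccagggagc
In these windows Socs3 held 1 STAT motif and Serpina3n 0, while Mt2 held 5 and Mt1 1 match to the metal response element core. Bases past the gene start and further upstream were not searched. The counts therefore do not compare whole promoters, and Mt1 may hold more matches outside its window. The windows of Lrg1, Lcn2 and Fkbp5 held 0 STAT motifs.

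Metallothioneins, small proteins that bind zinc and copper and are induced through the metal response element and by glucocorticoids, rose strongly. Mt2 (ENSMUSG00000031762) had the 5 matches to the looser letters TGCNCNC in its printed window. It ranged from 3.52 to 9.05 (median 6.86) in the paclitaxel hosts and from 1.27 to 5.00 (median 2.57) in the PBS mice. The median of the paclitaxel hosts lay above the highest PBS library although the groups overlapped, and the difference was 3.74 ± 0.48, adjusted p = 3.48e-06. Mt1 (ENSMUSG00000031765), its neighbour, lay between 3.41 and 5.87 (median 4.25) in the PBS mice and between 4.29 and 9.62 (median 6.96) in the paclitaxel hosts. Its difference was 2.67 ± 0.41, adjusted p = 3.21e-05. The zinc importer Slc39a14 (ZIP14) rose by 0.73 ± 0.23 (adjusted p = 0.0168), but with the covariate it missed the threshold (adjusted p = 0.0556). Of all 13 metallothioneins and zinc transporters 3 rose (23.1%) and 2 fell (15.4%), with a median of -0.12, against 15% and 16.1% of all genes. With the covariate 2 rose and 1 fell. Mt1 and Mt2 share sequence, and shared reads could move between them.

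In iron handling, 4 of 15 genes rose and 5 fell, against 15% and 16.1% of all genes, and 3 and 2 with the covariate. In the 18 libraries at or below 0.1 1 rose and 0 fell. Tfrc, the transferrin receptor, ranged from 0.81 to 6.94 (median 5.28) in the paclitaxel hosts and from 5.09 to 7.19 (median 6.13) in the PBS mice. Male paclitaxel libraries ranged from 0.81 to 5.53, and the difference was -1.54 ± 0.43, adjusted p = 0.00884. It was -0.38 (adjusted p = 0.335) in the 18 libraries at or below 0.1, -2.56 (adjusted p = 0.0322) in the 10 above it and -0.88 (adjusted p = 0.111) with the covariate. Ireb2, an iron regulatory protein that stabilises the Tfrc transcript, chosen after its values were seen, showed a like dependence (-0.74 ± 0.25, adjusted p = 0.0267, and -0.094 (adjusted p = 0.313) with the covariate), and it also missed the threshold without male paclitaxel replicate 1, 2 or 5 (-0.68 to -0.63). Hmox1, which breaks down haem, rose by 0.60 ± 0.12 (adjusted p = 9.82e-04) and Fth1, the ferritin heavy chain, by 0.30 ± 0.075 (adjusted p = 0.00394), both called with the covariate too.

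Glucocorticoid-responsive genes rose in part. Of 24 genes 9 rose (37.5%) and 1 fell (4.2%), against 15% and 16.1% of all genes, with 7 and 2 under the covariate. Fkbp5 (ENSMUSG00000024222), a cochaperone of the glucocorticoid receptor and one of its most sensitive targets, ranged from 7.23 to 8.96 (median 7.58) in the paclitaxel hosts and from 3.42 to 6.45 (median 5.59) in the PBS mice. The groups did not overlap, and the difference was 2.41 ± 0.23, adjusted p = 5.07e-08. Zbtb16 (PLZF), a transcriptional repressor induced by the receptor, gained 1.57 ± 0.20 (adjusted p = 3.68e-06), and Lpin1, a phosphatidate phosphatase of lipid metabolism, 0.87 ± 0.12 (adjusted p = 5.30e-06). Angptl4, an inhibitor of lipoprotein lipase, and Pdk4, which shuts pyruvate out of oxidation, were chosen after their values were seen and rose by 1.88 ± 0.38 and 1.08 ± 0.32 (adjusted p = 7.83e-04 and 0.0130). Klf15, a receptor target that drives amino acid breakdown, was not called (0.26 ± 0.27, adjusted p = 0.457). Its estimates were -0.69 ± 0.28 in females and 1.23 ± 0.28 in males, and their difference did not pass (adjusted p = 0.114).

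FoxO factors moved in different directions. Foxo1 lay between 3.95 and 6.39 (median 4.55) in the PBS mice and between 4.49 and 7.48 (median 5.97) in the paclitaxel hosts. It rose by 1.31 ± 0.26 (adjusted p = 6.62e-04), and 1 female PBS library, replicate 4, was the highest control at 6.39. Foxo3 rose by 1.00 ± 0.13 (adjusted p = 5.95e-06) in both kinds of library. Foxo6 ranged from 0.37 to 3.41 (median 1.77) in the paclitaxel hosts and from 2.49 to 4.11 (median 3.44) in the PBS mice, and fell by 1.46 ± 0.21 (adjusted p = 1.75e-05), with 12 of 13 paclitaxel libraries below the PBS mean.

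Of the 2 ubiquitin ligases best known to mark atrophy, 1 passed the test by a narrow margin. Fbxo32 (ENSMUSG00000022358), atrogin-1, ranged from 6.60 to 11.08 (median 8.90) in the paclitaxel hosts and from 7.15 to 8.41 (median 7.94) in the PBS mice. The paclitaxel hosts lay on both sides of the PBS range, and the difference of 0.74 ± 0.28, adjusted p = 0.0437 missed the threshold with the covariate (0.77, adjusted p = 0.0805). Trim63 (ENSMUSG00000028834), MuRF1, lay between 7.43 and 8.43 (median 7.89) in the PBS mice and between 7.02 and 12.02 (median 8.24) in the paclitaxel hosts. Its difference was 0.83 ± 0.34, adjusted p = 0.0592, so it was not called. In males the 2 ligases rose by 1.35 ± 0.37 (adjusted p = 0.00904) and 1.74 ± 0.42 (adjusted p = 0.00438), in females they were 0.15 ± 0.37 (adjusted p = 0.889) and -0.068 ± 0.42 (adjusted p = 0.958), and the difference between sexes did not pass for either (adjusted p = 0.367 and 0.333). Male paclitaxel libraries ranged from 7.49 to 11.08 for Fbxo32 and from 7.99 to 12.02 for Trim63. The call of Fbxo32 was lost when any 1 of 15 of the libraries was left out (0.56 to 0.75), and Trim63 was called when any 1 of 6 was left out (0.90 to 0.95).

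Over the 31 genes of the ligase and atrophy list 10 rose and 12 fell (32.3% and 38.7%), against 15% and 16.1% of all genes. With the covariate 7 rose and 7 fell, and 3 rose and 1 fell in both kinds of library. Nedd4l, a ligase of membrane proteins, rose by 0.78 ± 0.14 (adjusted p = 2.08e-04). Trim55 (MuRF2), a relative of MuRF1 at the sarcomere, fell by 0.54 ± 0.093 (adjusted p = 1.36e-04). Fbxw7, the substrate adaptor of a cullin ligase, ranged from 3.17 to 4.08 (median 3.66) in the paclitaxel hosts and from 4.09 to 4.84 (median 4.52) in the PBS mice and fell by 0.81 ± 0.098 (adjusted p = 1.63e-06) with no overlap. Asb1, another cullin adaptor, fell by 0.58 ± 0.085 (adjusted p = 2.19e-05), likewise with no overlap.

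Lysosome genes rose more often than they fell. Of 33 autophagy genes 7 rose (21.2%) and 5 fell (15.2%), near the 15% and 16.1% of all genes, and 5 and 1 with the covariate. Of 34 lysosome genes 11 rose (32.4%) and 1 fell (2.9%), with 10 and 0 under the covariate. Map1lc3a, an LC3 protein of the autophagosome membrane, gained 0.78 ± 0.16 (adjusted p = 9.60e-04) and Map1lc3b 0.60 ± 0.14 (adjusted p = 0.00242), and with the covariate these were 0.41 and 0.36, still called. Ctsl, the lysosomal protease cathepsin L, was not called (0.14 ± 0.15, adjusted p = 0.459). Proteasome genes showed 10 rises and 3 falls of 44, and 3 and 5 with the covariate. Eif4ebp1, which represses cap-dependent translation, rose by 1.29 ± 0.26 (adjusted p = 7.19e-04), and Mtor by 0.47 ± 0.099 (adjusted p = 0.00117). Cdkn1a (p21), a cell cycle inhibitor, rose by 1.11 ± 0.35 (adjusted p = 0.0190), but not with the covariate (0.70, adjusted p = 0.164).

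Neutrophil and macrophage markers were higher in the paclitaxel hosts. In bulk muscle, more cells of a type and more RNA per cell cannot be told apart. Of 13 neutrophil markers 8 were measured and 6 rose (75.0%, against 15% of all genes), and 6 did with the covariate. In both kinds of library 5 rose. The summed level of these markers was 1.45 to 12.6 CPM in the PBS mice and 4.85 to 34.0 in the paclitaxel hosts. Csf3r, the receptor for granulocyte colony-stimulating factor, ranged from 0.73 to 3.24 (median 1.89) in the paclitaxel hosts and from -1.52 to 2.30 (median -0.036) in the PBS mice, a difference of 1.99 ± 0.25, adjusted p = 2.69e-06. S100a9, a calcium-binding protein abundant in neutrophils, rose by 2.62 ± 0.36 (adjusted p = 9.00e-06). Mmp8 and Cxcr2 were called as well, but 5 of 15 PBS libraries held no counts of each, so their fitted differences depend on the offset in the authors' log2 values and are not given as sizes.

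Macrophage markers rose in 16 of 20 cases (80.0%, against 15% of all genes), with 1 fall and a median of 0.97. With the covariate 18 rose and 1 fell. Their summed level was 118 to 307 CPM in the PBS mice and 187 to 445 in the paclitaxel hosts. C1qa, a chain of complement C1q that macrophages make, lay between 2.74 and 4.12 (median 3.54) in the PBS mice and between 4.09 and 5.88 (median 4.94) in the paclitaxel hosts. Its difference was 1.36 ± 0.18, adjusted p = 4.29e-06. Fcgr3, a receptor for immunoglobulin G, rose by 1.11 ± 0.14 (adjusted p = 3.08e-06). Cd163, a scavenger receptor, and Lyve1, a hyaluronan receptor, both of resident macrophages and chosen after their values were seen, rose by 1.06 ± 0.22 and 1.33 ± 0.23 (adjusted p = 0.00106 and 1.50e-04). Csf2rb, the shared subunit of the receptors for GM-CSF, interleukin-3 and interleukin-5, ranged from 1.88 to 4.07 (median 3.15) in the paclitaxel hosts and from 0.28 to 1.81 (median 1.05) in the PBS mice with no overlap, and differed by 1.93 ± 0.23, adjusted p = 1.08e-06. Its copy Csf2rb2 shares reads with it, so the split between them is uncertain.

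The vascular markers changed as a mixture. Of 19 endothelial markers 10 rose (52.6%) and 3 fell (15.8%), against 15% and 16.1% of all genes. Under the covariate 7 rose and 2 fell, and 5 rose and 1 fell in both kinds of library. Their summed level was 842 to 1330 CPM in the PBS mice and 893 to 2023 in the paclitaxel hosts. Ackr1, a chemokine-binding receptor of venules, ranged from 1.88 to 3.68 (median 2.73) in the paclitaxel hosts and from 0.042 to 1.73 (median 1.01) in the PBS mice. The groups did not overlap, and the difference was 1.86 ± 0.18, adjusted p = 3.68e-08. Selp (P-selectin), which catches rolling leukocytes, gained 2.00 ± 0.28 (adjusted p = 8.74e-06), Vwf, the clotting factor stored in endothelium, 0.94 ± 0.13 (adjusted p = 9.37e-06), and Icam1, which holds leukocytes firmly, 1.01 ± 0.14 (adjusted p = 8.20e-06). Plvap, a protein of fenestrated endothelium chosen after its values were seen, rose by 1.70 ± 0.15 (adjusted p = 1.16e-08) with no overlap. Lower were Kdr, the main receptor for VEGF, and Bcl6b, a transcriptional repressor of endothelium. Kdr fell by 0.65 ± 0.18 (adjusted p = 0.00797), missing the threshold with the covariate (-0.49, adjusted p = 0.0626), while Bcl6b ranged from 0.96 to 2.55 (median 2.00) in the paclitaxel hosts and from 2.17 to 4.93 (median 3.89) in the PBS mice and fell by 1.86 ± 0.21 (adjusted p = 4.83e-07), called with the covariate and in both kinds of library.

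In the NF-κB and cytokine list 9 of 23 rose (39.1%) and 1 fell (4.3%), against 15% and 16.1% of all genes. With the covariate 7 rose and 1 fell. Tnfrsf1b, a receptor for tumour necrosis factor, rose by 0.89 ± 0.12 (adjusted p = 6.46e-06). Cxcl14, a chemokine that muscle itself makes, lay between 4.44 and 5.96 (median 5.19) in the PBS mice and between 5.98 and 7.77 (median 6.84) in the paclitaxel hosts, with no overlap and a difference of 1.45 ± 0.15, adjusted p = 2.44e-07. In the matrix list 9 of 38 rose (23.7%, against 15% of all genes) and 1 fell (2.6%, against 16.1%), with the same counts under the covariate. Among the rises were Lox, which crosslinks collagen (1.49 ± 0.27), the metalloproteinase inhibitor Timp1 (2.00 ± 0.40) and elastin, Eln (1.11 ± 0.15). Ly6a, a marker of fibro-adipogenic and endothelial cells, rose by 1.29 ± 0.13 (adjusted p = 7.79e-08), and 3 of 12 fibro-adipogenic markers rose in all (4 with the covariate). The Schwann cell list had 0 calls of 13 in limma (0 at an unadjusted p under 0.05), and 1 rose with the covariate.

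Ighm, the immunoglobulin μ heavy chain, had the largest fall among the genes of mean log2 of at least 1. It ranged from -0.33 to 6.21 (median 1.20) in the paclitaxel hosts and from 3.04 to 6.84 (median 5.42) in the PBS mice. The levels differed by sex, with means of 3.62 in female and 6.26 in male PBS mice, and 1 male paclitaxel library lay at 6.21, inside the male PBS range. The difference was -3.16 ± 0.42, adjusted p = 5.60e-06, and it was called in both kinds of library. Of the 7 measured markers of B cells and MHC class II 2 fell and 2 rose (28.6% each, against 16.1% and 15% of all genes). With the covariate 2 fell and 0 rose. Cd79b, part of the B cell receptor, was called lower (adjusted p = 0.0124), but 3 of 13 paclitaxel libraries held no counts of it, so no size is given. Cd83, an activation marker of dendritic and B cells, ranged from -3.51 to -0.63 (median -1.61) in the paclitaxel hosts and from -0.56 to 0.49 (median 0.055) in the PBS mice and fell by 2.01 ± 0.27 (adjusted p = 5.26e-06) with no overlap.

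The other large falls by the rule were those of Styx-ps, Amd2, Coq10b, Bcl6b, Nmrk2, Itgb6, Kera, Nrep and Tfrc. Itgb6, an integrin subunit that activates TGF-β, ranged from 1.31 to 3.90 (median 3.03) in the paclitaxel hosts and from 4.17 to 4.86 (median 4.56) in the PBS mice. The groups did not overlap, and the difference was -1.66 ± 0.18, adjusted p = 3.24e-07. Nmrk2, the muscle nicotinamide riboside kinase, fell by 1.74 ± 0.38 (adjusted p = 0.00156). Nrep, a neuronal regeneration-related protein, fell by 1.59 ± 0.29 (adjusted p = 2.52e-04). Coq10b, a coenzyme Q-binding protein of mitochondria, ranged from 0.15 to 3.91 (median 2.59) in the paclitaxel hosts and from 2.97 to 5.72 (median 4.22) in the PBS mice and fell by 1.91 ± 0.29 (adjusted p = 3.15e-05), though among the 10 libraries above the slope limit it did not pass (-1.47, adjusted p = 0.106). Slc25a15, the mitochondrial ornithine carrier, fell by 0.64 ± 0.079 (adjusted p = 1.97e-06) with no overlap. No size is given for Styx-ps, of which 3 of 13 paclitaxel libraries held no counts, and Kera was -1.59 ± 0.58. Neither passed with the covariate (adjusted p = 0.136 and 0.406). Kera also missed the threshold when any 1 of 12 of the libraries was left out (-1.60 to -1.32). Styx-ps is named as a pseudogene, so its reads may belong to its parent gene.

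Polyamines are small cations made from ornithine. Of 12 measured genes of their metabolism 3 fell (25.0%) and 2 rose (16.7%), against 16.1% and 15% of all genes. With the covariate 3 fell and 1 rose. Amd1, S-adenosylmethionine decarboxylase, lay between 6.43 and 10.57 (median 9.50) in the PBS mice and between 5.52 and 10.07 (median 7.07) in the paclitaxel hosts, a difference of -1.45 ± 0.32, adjusted p = 0.00151. Its copy Amd2 fell by 2.06 ± 0.52 (adjusted p = 0.00460), and reads shared between them make the split uncertain. Azin1, the antizyme inhibitor that protects ornithine decarboxylase, fell by 1.06 ± 0.17 (adjusted p = 4.45e-05) and was called in both kinds of library. The summed level of the list was 724 to 2658 CPM in the PBS mice and 723 to 2153 in the paclitaxel hosts.

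Genes of the tricarboxylic acid cycle, which burns acetyl groups in mitochondria, were lower. In the tricarboxylic acid cycle list 12 of 25 fell (48.0%, against 16.1% of all genes) and 0 rose, and with the covariate 16 fell. Fewer were called in each kind of library, with 5 falls in the 18 libraries at or below 0.1 and 4 in the 10 above it. Only 1 fell in both kinds. Dlat, a subunit of pyruvate dehydrogenase, fell by 0.52 ± 0.10 (adjusted p = 6.78e-04) and Idh3a, of isocitrate dehydrogenase, by 0.43 ± 0.092 (adjusted p = 0.00146). Of 78 nuclear-encoded genes of oxidative phosphorylation 14 fell (17.9%, near the background of 16.1%) and 0 rose, but with the covariate 24 fell against a background of 10.1%. Ndufs1, a complex I subunit, lay between 8.13 and 8.87 (median 8.50) in the PBS mice and between 6.73 and 8.61 (median 7.84) in the paclitaxel hosts, a difference of -0.74 ± 0.15, adjusted p = 9.22e-04, and Uqcrc2, of complex III, fell by 0.56 ± 0.11 (adjusted p = 5.26e-04). Pdp1, the phosphatase that switches pyruvate dehydrogenase on, fell by 1.28 ± 0.24 (adjusted p = 3.86e-04).

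The 13 mitochondrially encoded genes behaved differently. Of these 5 fell and the median was -0.92, but with the covariate 0 was called and the median was 0.0059. mt-Co1, a subunit of complex IV, was -0.92 ± 0.33, adjusted p = 0.0331 over all libraries, -0.24 (adjusted p = 0.338) in the 18 libraries at or below the slope limit and -1.09 (adjusted p = 0.0211) in the 10 above it, and its call was lost when any 1 of 8 of the libraries was left out (-0.88 to -0.78). Of fuel genes 6 of 42 rose (14.3%) and 11 fell (26.2%), against 15% and 16.1% of all genes. With the covariate 5 rose and 9 fell. Ucp2, a mitochondrial carrier, rose by 1.20 ± 0.20 (adjusted p = 8.21e-05) and Lipe, hormone-sensitive lipase, by 0.86 ± 0.12 (adjusted p = 1.09e-05). Cpt1a, the non-muscle form of the carnitine palmitoyltransferase that admits fatty acids to mitochondria, chosen after its values were seen, rose by 0.59 ± 0.16 (adjusted p = 0.00658).

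Cytosolic ribosomal protein genes were called higher in 56 of 82 cases (68.3%) and lower in 0, with a median of 0.39. With the covariate 24 rose and the median was 0.18, and 19 rose in both kinds of library. Rps20 lay between 6.37 and 7.42 (median 6.95) in the PBS mice and between 6.86 and 7.95 (median 7.63) in the paclitaxel hosts. Its difference was 0.59 ± 0.11, adjusted p = 4.86e-04. Rpl3 rose by 0.82 ± 0.13 (adjusted p = 3.61e-05) with no overlap and Rpl13a by 0.36 ± 0.068 (adjusted p = 3.43e-04). Ribosomal proteins have many processed pseudogenes that share reads with them. Mitochondrial ribosomal proteins gave 8 rises (10.5%) and 19 falls (25.0%) of 76, against 15% and 16.1% of all genes. Their median of -0.020 equalled that of all genes. With the covariate 0 rose and 14 fell (median -0.099), against 10.4% and 10.1% of all genes. In the 10 libraries above 0.1 the calls were 11 and 12, and in the 18 at or below it 1 and 5.

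**Figure D4:**
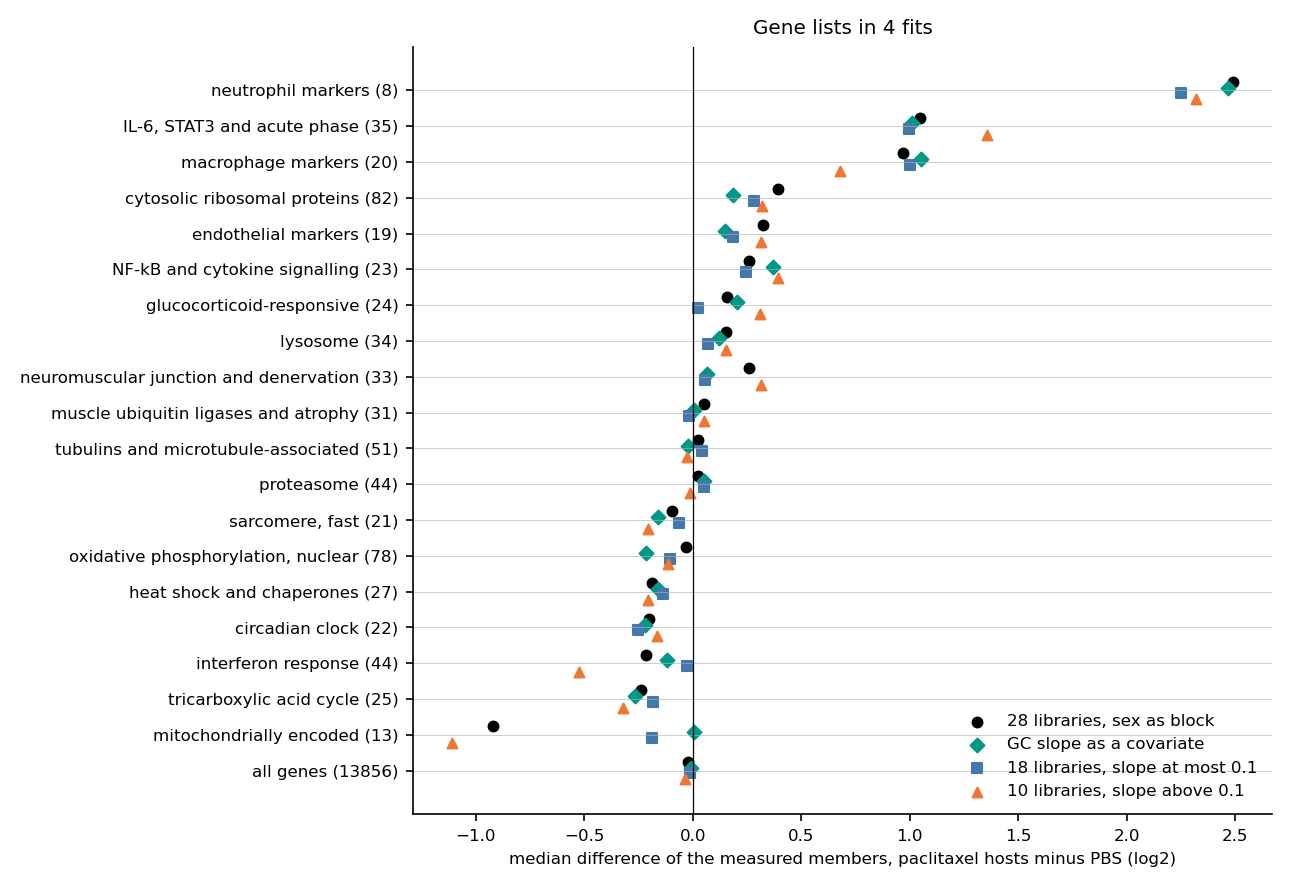
Median difference of the measured members of 19 gene lists and of all genes (log2, x axis) between paclitaxel hosts and PBS mice, in the 28 libraries, with GC slope as a covariate, in the 18 libraries with a slope of at most 0.1 and in the 10 above it, with the number measured in brackets. Neutrophil, acute-phase and macrophage lists lie to the right in all 4 fits, whereas the mitochondrially encoded list moves from -0.92 to 0.0059 with the covariate.

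Of 27 heat shock genes 6 fell (22.2%, against 16.1% of all genes) and 2 rose, and with the covariate 9 fell and 0 rose. Dnajb1, a cochaperone of HSP70, ranged from 2.13 to 3.40 (median 2.71) in the paclitaxel hosts and from 3.09 to 5.80 (median 3.91) in the PBS mice and fell by 1.38 ± 0.23 (adjusted p = 1.05e-04), Dnaja1, another, by 0.92 ± 0.14 (adjusted p = 4.18e-05) and Hsp90aa1, the inducible HSP90, by 0.87 ± 0.18 (adjusted p = 8.41e-04). Hspa1a, the inducible HSP70, was not called (-0.71 ± 0.49, adjusted p = 0.264), but it was with the covariate (-1.50, adjusted p = 0.0176). Of 22 clock genes 8 fell (36.4%) and 2 rose, with the same counts under the covariate. In the 18 libraries at or below 0.1 the clock list had 10 falls and 2 rises, but in the 10 above it 2 falls and 0 rises. In both kinds 2 fell and 0 rose. The output factor Dbp lay between 5.49 and 7.39 (median 6.52) in the PBS mice and between 2.50 and 6.91 (median 5.24) in the paclitaxel hosts, and fell by 1.32 ± 0.28 (adjusted p = 0.00105). Its relative Hlf fell by 1.07 ± 0.20 (adjusted p = 3.36e-04), the repressor Ciart by 1.18 ± 0.33 (adjusted p = 0.00917), and Bmal1, a core activator, rose by 0.85 ± 0.24 (adjusted p = 0.0101), the last 2 chosen after their values were seen. The labels give no hour of collection, so a shift of clock time between groups was not tested.

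At the neuromuscular junction 9 of 33 genes rose (27.3%) and 2 fell (6.1%), against 15% and 16.1% of all genes. Under the covariate 8 rose and 3 fell. Chrna1 and Chrnb1, subunits of the muscle acetylcholine receptor, rose by 0.48 ± 0.086 (adjusted p = 2.19e-04) and 0.47 ± 0.089 (adjusted p = 4.46e-04). Runx1, a transcription factor raised by denervation, ranged from 0.83 to 2.44 (median 1.72) in the paclitaxel hosts and from -0.015 to 1.65 (median 0.61) in the PBS mice and gained 1.08 ± 0.18 (adjusted p = 9.94e-05). Musk, the receptor kinase that clusters acetylcholine receptors, chosen after its values were seen, rose by 1.25 ± 0.35 (adjusted p = 0.00973).

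Of 21 fast sarcomere genes 3 rose and 3 fell (14.3% each), near the 15% and 16.1% of all genes, and 1 and 3 with the covariate. Of 17 slow ones 0 rose and 1 fell, with and without the covariate. Myl1, the fast essential light chain, fell by 0.58 ± 0.15 (adjusted p = 0.00475). Of calcium genes 3 of 34 rose (8.8%) and 6 fell (17.6%), and with the covariate 0 and 8. Casq1 (calsequestrin), which holds calcium in the sarcoplasmic reticulum, fell by 0.64 ± 0.17 (adjusted p = 0.00590) and Pvalb, which buffers calcium, by 0.64 ± 0.16 (adjusted p = 0.00400). These 3 falls were called with the covariate and in neither kind of library alone.

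Genes of the drug's own target, the microtubule, were called about as often as other genes. Of 51 tubulin and microtubule genes 10 rose (19.6%) and 9 fell (17.6%), and 3 and 3 with the covariate, under its background of 10.4% and 10.1%. Tuba1c, an α-tubulin, rose by 0.73 ± 0.14 (adjusted p = 4.06e-04). Kif1b, a kinesin that carries cargo along axons, fell by 0.72 ± 0.15 (adjusted p = 0.00105) and was called in both kinds of library, and Katna1, which severs microtubules, fell by 0.50 ± 0.11 (adjusted p = 0.00123). In the interferon list 2 of 44 rose (4.5%) and 10 fell (22.7%), against 15% and 16.1% of all genes, and 1 and 5 with the covariate. In the 18 libraries at or below 0.1 the calls were 0 and 0 (median -0.027). In the 10 above it 0 rose and 6 fell (median -0.53). Over all 28 libraries Ifi44 was -1.48 ± 0.35, adjusted p = 0.00282 and Gbp3 -0.95 ± 0.26, adjusted p = 0.00766.

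Split by sex, 576 genes were called in females (4.16%, with 2.54% higher and 1.62% lower) and 4854 in males (35%, with 15.8% higher and 19.2% lower), but limma found a difference between the effects of the 2 sexes in 1 gene, lower in males (0.00722%, and 1799 at an unadjusted p under 0.05). The slope moved with the groups in males, where 4 of 6 paclitaxel and 2 of 8 PBS libraries exceeded 0.1. In females the count above 0.1 was even, at 2 of 7 in each. The slopes there were not, at 0.474 and 0.380 in the paclitaxel and 0.218 and 0.220 in the PBS libraries. With the covariate 1452 genes were called in females and 1442 in males. Without male paclitaxel replicate 3 or 1 the males gave 3178 and 3196 calls. For the sex difference, leaving out single libraries gave 0 to 14 calls, the most without male paclitaxel replicate 4, and quality weights 4229. The 1 gene was Slc25a30, a mitochondrial carrier, at 0.022 ± 0.14 (adjusted p = 0.958) in females and -1.16 ± 0.14 (adjusted p = 1.79e-05) in males, a difference of -1.18 ± 0.20 (adjusted p = 0.0385). Inmt, an N-methyltransferase, was -1.97 ± 0.32 in females and 0.20 ± 0.32 in males, and Mettl21c, a muscle lysine methyltransferase, 0.21 ± 0.30 and -1.86 ± 0.31, but neither difference between sexes passed (adjusted p = 0.114 and 0.114). Over both sexes Slc25a30 and Mettl21c were called lower, but neither passed with the covariate. Serpina3n was 3.10 ± 0.39 (adjusted p = 9.22e-05) in females and 3.65 ± 0.40 (adjusted p = 2.75e-06) in males, Fkbp5 2.37 ± 0.33 (adjusted p = 1.64e-04) and 2.44 ± 0.34 (adjusted p = 5.25e-05), Bcl6b -2.14 ± 0.29 (adjusted p = 9.22e-05) and -1.58 ± 0.29 (adjusted p = 6.91e-04), and Itgb6 -1.58 ± 0.26 (adjusted p = 5.19e-04) and -1.74 ± 0.26 (adjusted p = 9.57e-05), whereas Tfrc was -0.31 ± 0.51 (adjusted p = 0.825) and -2.80 ± 0.52 (adjusted p = 7.46e-04), and its difference between sexes had an adjusted p of 0.320.

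**Figure D5:**
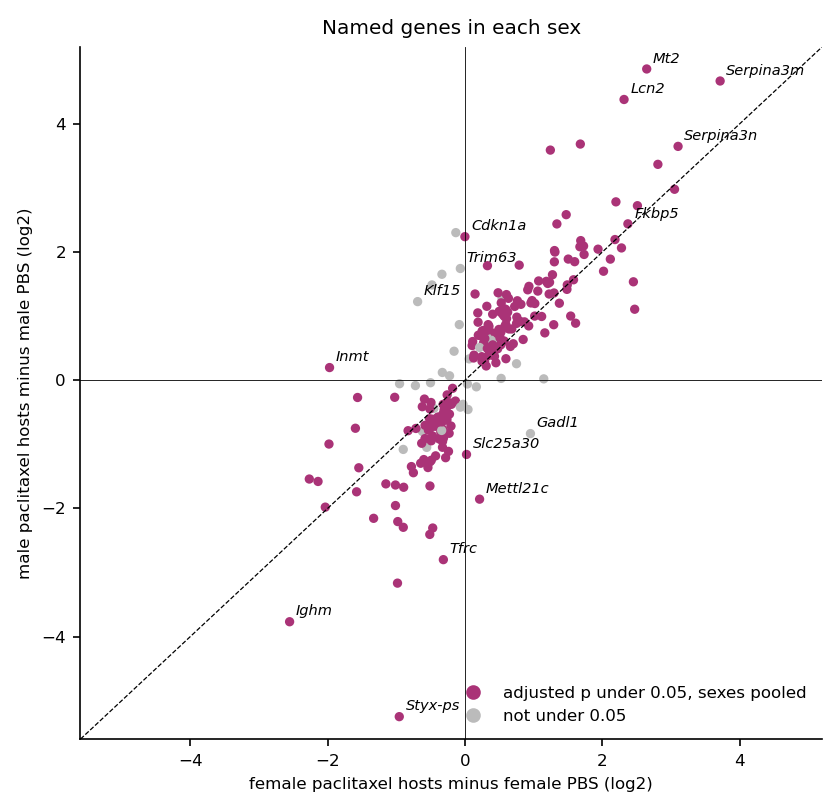
Difference between paclitaxel hosts and PBS mice in females (x axis) and males (y axis), log2, for the 247 genes chosen by the rule for named genes or named after their values were seen, with genes called over both sexes in purple and the line of equal effect dashed. Serpina3n and Fkbp5 lie near the line, whereas Tfrc, at -0.31 in females and -2.80 in males, lies far from it.

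Set beside saline-treated C26 hosts, the paclitaxel hosts differed in 349 of 13856 genes (2.52%, 175 higher and 174 lower), and limma called 0 with the slope as a covariate (2155 at an unadjusted p under 0.05). Leaving out single libraries gave 0 to 3272 calls, the most without female saline replicate 7. The comparison shares its paclitaxel libraries with the one above, so only levels are set side by side. Serpina3n averaged 1.61 ± 0.58 (SD) in the PBS mice, 4.97 ± 0.96 in the paclitaxel hosts and 6.01 ± 0.86 in the saline hosts. Lcn2 averaged -0.28 ± 1.03, 2.98 ± 1.89 and 5.08 ± 2.28 in the same order. Mt2 averaged 2.88 ± 1.17, 6.66 ± 1.54 and 8.05 ± 1.19. In these 3 genes the paclitaxel hosts lay between the other groups, nearer to the saline hosts, and the differences from the saline hosts did not pass (adjusted p = 0.0581, 0.0541 and 0.0780). Fkbp5, Ackr1 and Itgb6 were -0.18 ± 0.19, -0.077 ± 0.17 and -0.061 ± 0.31 relative to the saline hosts.

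Other genes had means nearer to the PBS mice than to the saline hosts. Eda2r, a receptor of the TNF family, averaged 2.94 ± 0.49 in the PBS mice, 2.50 ± 0.77 in the paclitaxel hosts and 3.56 ± 0.92 in the saline hosts, and Ctsl 6.28 ± 0.21, 6.42 ± 0.55 and 7.34 ± 0.84. Fbxo32 averaged 7.88 ± 0.38, 8.55 ± 1.32 and 9.55 ± 1.23. The 5 genes with the smallest p against the saline hosts follow. They were picked by that p, so their distance from the saline hosts was set by the choice and is not a separate result. Abcb1b, a drug efflux pump, was -0.81 ± 0.16 (adjusted p = 0.0326) against the saline hosts and 0.20 ± 0.14 against the PBS mice. Nfe2l2 (NRF2), the factor of antioxidant genes, was -0.63 ± 0.12 (adjusted p = 0.0326) and -0.11 ± 0.10, and Tbc1d4, which controls glucose transport, -0.70 ± 0.13 (adjusted p = 0.0326) and -0.079 ± 0.11. Prex1, an exchange factor for Rac, was 0.56 ± 0.11 (adjusted p = 0.0326) and -0.011 ± 0.11, and Srsf7, a splicing factor, -0.41 ± 0.078 (adjusted p = 0.0326) and -0.15 ± 0.059. Against the PBS mice Srsf7 missed the threshold when any 1 of 19 of the libraries was left out, and it was 0.18 after the GC and length trend was removed.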

How the data were processed

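Gastrocnemius RNA was extracted with TRIzol and column kits and sequenced as paired-end Illumina reads, per the labels' protocols. The submitters' processing notes name fastp, FastQC, MultiQC, Salmon, edgeR, limma and the build GRCm39 (mm39), with no version, role or order. The authors deposited log2 values for 13856 genes. Depths were estimated from the smallest value of each library, assumed to stand for no counts plus a fixed offset. On that assumption 85.0 to 90.7% of values lay within 0.02 of a whole count. A gene at its library's smallest value was read as having no counts. The deposited values were fitted with limma 3.58.1 (R 4.3.3, empirical Bayes with trend) by sex and treatment, with Benjamini-Hochberg adjustment and a threshold of 0.05. The fit was tested on simulated data. Other values were computed with Python 3.11.15. GC content and length of 13791 genes (99.5%) came from GENCODE annotation on GRCm38, and the GC slope was fitted over 10637 genes of mean log2 of at least 1, with length as a further term.

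Named genes were the 10 largest called changes in each direction at a mean log2 of at least 1, up to 4 members of each list by smallest adjusted p, a fixed set of genes, and the 5 smallest p of the sex difference and of the saline comparison. Exceptions are stated. The members and lists were chosen with earlier results of these data known. The alternatives tried were normalization, filters, a pseudocount of 1, weights, GC and mitochondrial terms, replicate blocks and single libraries left out. Nothing in the labels says more of how replicates arose than their numbers, so the p-values cover only variation among the libraries at hand. The closest pair of libraries in a group, male PBS replicates 2 and 4, had a chi-square per gene of 14.2 on average, above sampling noise. Near-identical genes share reads, so their values are uncertain. Of the female PBS libraries 1 was not analysed here, and 1 library with conflicting labels was left out. Some genes are not reported here.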

Additional observations from a re-analysis of the deposited data

Results flagged for a closer look

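Single libraries far from the rest of their group were sought by Dixon's test in 104 combinations of group and item (26 items), and 4 stood apart, where chance gives about 5% of groups. Foxo1 was 6.39 in female PBS replicate 4, against 4.955 in the next library. Socs3 was 3.603 in male PBS replicate 7, with the next at 1.739. Cdkn1a was 4.432 in female PBS replicate 1, below the next library at 5.341. Ighm was -0.3334 in female paclitaxel replicate 3, below the next at 1.074. Between the sexes, the effect in Slc25a30 was -1.181 in males minus females (adjusted p = 0.0385, limma), the 1 gene whose difference passed, and it did not pass with the GC slope as a covariate.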

How the results depend on the processing

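Over both sexes, 4316 calls became 2782 with library quality weights, 2839 with GC slope as a covariate, 1915 among the 18 libraries of slope at most 0.1, 2469 among the 10 above it (chosen after the slopes were seen), 2576 with the mitochondrial share as a covariate, 2684 with a replicate block and 1694 with the block and the covariate. Females gave 576 calls, and in the same order 1762, 1452, 1148, 0 (1828 at an unadjusted p under 0.05, limma), 1373 and, with block and covariate, 1072, and 1037 once the GC and length trend was removed. Males gave 4854 calls, and 1442 with the covariate, 3116 after the trend was removed, 113 among libraries of slope at most 0.1, 1052 among those above it, 1387 with the mitochondrial share, 2354 with the block and 289 with block and covariate. The sex difference of 1 gene became 0 with all libraries in the fit, with the covariate, in either slope class, with the block and with block and covariate, and 4229 with quality weights. Against the saline hosts, 349 calls became 609 with quantile normalization, 715 with a filter on low values, 2396 with all libraries in the fit, 7 after the trend was removed, 4 among libraries of slope at most 0.1, and 0 with the slope covariate, the mitochondrial share or block and covariate. The cause of these shifts was not tested.

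Leaving out 1 library at a time gave 3403 to 5091 calls over both sexes, 389 to 723 in females, 3178 to 6068 in males, 0 to 14 for the sex difference and 0 to 3272 against the saline hosts. It gave differences of 0.178 to 0.233 in GC slope and of -4.05 to -3.12 in mitochondrially encoded share. On a log2 scale that share differed by -0.954, and among the 18 libraries of slope at most 0.1 by -1.41 percentage points.

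Of 128 called genes named in the text, 16 missed the threshold with the slope covariate, 17 with the mitochondrial share, 12 with quality weights, 12 with the block, 30 with block and covariate and 1 to 6 under quantile normalization, a pseudocount, all libraries, the trend removed or the slope class as a block. Among the 18 libraries of slope at most 0.1, 27 missed it, of which Amd1, Amd2, Cd79b, Ephx1, Fth1, Gbp3, Hsp90aa1, Ifi44, Katna1 and Nmrk2 are not described above as lost, and among the 10 above it 42 did, among them Angptl4, Asb1, Bmal1, Bst1, Cd163, Chrna1, Ciart, Cpt1a, Dbp, Dlat, Foxo1, Foxo6, Idh3a, Lpin1, Mdm2, Mtor, Musk, Myh11, Notch3, Pdk4, Plin4, Six4, Tagln and Tuba1c. Fewer libraries were tested there. Rgs5 and Abcc9, named below, were not among the 128 genes. Srsf7 turned from -0.15 to 0.18 (adjusted p = 0.297) once the trend was removed. Same-numbered replicates deviated together in 7 of 13 pairs (correlations of -0.60 to 0.66, 2 best with their own number), so the numbers were taken as names. A depth of 11.7 to 34.1 M counts limits weakly expressed genes, some of which had libraries with no counts.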

Other observations

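Markers of vessel-wall cells other than endothelium rose in part. Of 11 pericyte and smooth muscle markers 6 rose (54.5%) and 2 fell (18.2%), with a median of 0.36, against 15% and 16.1% of all genes. With the GC slope as a covariate 4 rose and 0 fell. The 2 that fell were Rgs5 (-0.56, adjusted p = 0.0330) and Abcc9 (-0.37, adjusted p = 0.0227), named so that both directions are shown. Tagln, an actin-binding protein of smooth muscle, lay between 4.28 and 5.15 (median 4.87) in the PBS mice and between 4.83 and 5.94 (median 5.35) in the paclitaxel hosts, a difference of 0.58 ± 0.10, adjusted p = 1.51e-04. Pdgfrb, the growth factor receptor of pericytes, rose by 0.48 ± 0.080 (adjusted p = 9.91e-05), Notch3, which maintains mural cells, by 0.41 (adjusted p = 0.00375), and Myh11, smooth muscle myosin, by 0.36 ± 0.085 (adjusted p = 0.00281). Of 13 adipocyte markers 2 rose and 0 fell (3 and 0 with the covariate), with Plin4, which coats lipid droplets, at 0.92 ± 0.17, adjusted p = 2.69e-04.

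Counts of the next lists stand against a background of 15% higher and 16.1% lower, and of 10.4% and 10.1% with the covariate. Of 28 antioxidant genes 10 rose and 6 fell, and 4 and 5 with the covariate. Sod3, the extracellular superoxide dismutase, rose by 1.00 ± 0.17 (adjusted p = 1.15e-04), while Ephx1, an epoxide hydrolase, fell by 0.48 ± 0.10 (adjusted p = 0.00131). Of 22 genes of IGF and insulin signalling 7 rose and 5 fell (4 and 3 with the covariate), with Igfbp4, which binds insulin-like growth factors, at 0.86 ± 0.12, adjusted p = 1.66e-05. In the myostatin, activin and TGF-β list 8 of 29 rose and 4 fell, and 4 and 9 with the covariate. Bmp4, a secreted morphogen, rose by 0.70 ± 0.12 (adjusted p = 8.56e-05) and Smad2, which relays activin and TGF-β signals, fell by 0.64 ± 0.11 (adjusted p = 1.46e-04).

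Of 32 targets of p53 5 rose and 5 fell, near the background in both directions, and 3 and 3 with the covariate, with Phlda3, a repressor of AKT, at 0.64 ± 0.12, adjusted p = 3.19e-04 and Mdm2, the ligase that degrades p53, at -0.34 ± 0.076, adjusted p = 0.00189. Of 32 genes of the ATF4 response 5 rose and 2 fell, and 2 and 5 with the covariate. Asns, which makes asparagine, rose by 0.74 ± 0.15 (adjusted p = 6.51e-04), and Cth, which makes cysteine, fell by 0.92 ± 0.21 (adjusted p = 0.00216). Of 22 myogenic and satellite cell genes 4 rose and 3 fell (3 and 5 with the covariate), with Cdh15 (M-cadherin), which joins satellite cells to fibres, at 0.71 ± 0.14, adjusted p = 5.34e-04 and Six4, a homeobox factor of muscle, at -0.73 ± 0.15, adjusted p = 9.38e-04. Of 20 genes of NAD metabolism 2 rose and 3 fell (1 and 3 with the covariate), and its enzymes Bst1 and Cd38 moved in opposite directions, at 1.28 ± 0.31, adjusted p = 0.00385 and -0.67 ± 0.21, adjusted p = 0.0179, the latter not called with the covariate (adjusted p = 0.237). Cell cycle genes gave 3 rises and 3 falls of 27, and 1 and 1 with the covariate. The unfolded protein response gave 3 rises and 3 falls of 25, and 1 and 1 with the covariate. Glycolysis gave 5 rises and 4 falls of 34, and 3 and 3 with the covariate. Ribosome biogenesis gave 3 rises and 3 falls of 34, and 3 and 1 with the covariate. Control of mTOR and translation gave 8 rises and 5 falls of 32, and 3 and 3 with the covariate. Erythroid markers gave 1 rises and 0 falls of 8, and 1 and 0 with the covariate. Of 15 T and NK cell markers 1 was measured, and limma called 0 of it (0 at an unadjusted p under 0.05).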
